A study of Mus musculus with 16 samples.

Results

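The 34 genes described here encode the enzymes of glycolysis, the transporters that bring glucose in and carry lactate out, 4 kinases that regulate the pathway, and the enzymes of the pentose phosphate pathway. They were chosen by gene symbol as the named isozymes and steps of these pathways, and all 34 were found among the 38293 genes counted. The values compare 2 mouse lymphoid cell lines. P6D4, derived from the SCID.adh thymic lymphoma, carries the stage label DN3, that of thymocytes whose T cell receptor is not yet complete. 70Z/3 is a lymphoblast line labelled as pre-B, a B lineage stage before the surface antibody receptor. Each line has 3 RNA-Seq libraries, called replicates 1 to 3, and 1 ChIP-Seq library of the transcription factor Miz1. The labels give no treatment for either line. Each lineage is represented by 1 line, so lineage and line cannot be told apart, and a difference below is a difference between P6D4 and 70Z/3.

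Glycolysis splits glucose into pyruvate in the cytosol and yields ATP without oxygen. Proliferating lymphocytes and lymphomas run it at a high rate and reduce much of the pyruvate to lactate, which regenerates NAD+. The pentose phosphate pathway branches off after the first step: its oxidative arm makes NADPH, and its non-oxidative arm interconverts ribose phosphate for nucleotides with glycolytic sugars. At several steps the mouse has more than one gene for the same reaction, and the isozymes differ in affinity, regulation and tissue use.

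The libraries held 48.3 to 54.8 M gene counts in P6D4 and 45.5 to 48.9 M in 70Z/3. Levels are counts per 1e6 (CPM) of the TMM-scaled library, without correction for transcript length, so a level may be compared between lines for 1 gene but not between genes. All 12 thymocyte markers were higher in P6D4, where their summed level was 4670 to 4734 CPM, against 180.2 to 187 CPM in 70Z/3. Of 13 pre-B markers, 11 were lower in P6D4 and the recombinase genes Rag1 and Rag2 were higher; the sum was 506 to 547 CPM in P6D4, most of it Rag1, and 4023 to 4154 CPM in 70Z/3. Myeloid, erythroid, stromal and NK markers summed to at most 39.3 CPM per list in P6D4 and 26.3 CPM in 70Z/3. Csf3r, S100a9, Alas2, Col3a1, Dcn, Eomes and Gzmb had no count in any library, while others differed between the lines. Tbx21 averaged 32.9 CPM in P6D4, against 0.0650 CPM in 70Z/3, and Itgam 29.1 CPM in P6D4, against 7.07 CPM in 70Z/3. Epor averaged 4.72 CPM in P6D4 with no count in 70Z/3, and Klrd1 had no count in P6D4, against 21.0 CPM in 70Z/3. Their part in the results was not tested. Whether the replicates were separate cultures is not stated. All p-values therefore rest on the spread among these libraries, which may be technical.

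Most of the glycolytic genes were modestly higher in P6D4. Of the 34 members, 30 had enough counts to be tested, and 20 of them rose in P6D4, 7 fell and 3 did not pass the test (edgeR quasi-likelihood test, adjusted p under 0.05 over all 13750 genes tested). The share of members called was 90%, near the 86.5% of all genes tested that were called, so passing the test sets these genes apart little in a pair of lines that differ in most genes. By direction, 66.7% of the members were called higher in P6D4, while over all genes 43.3% were higher and 43.2% lower. The median log2 fold change was 0.44 for the members and 0.01 for all genes tested. The median absolute log2 fold change was similar, at 0.63 for the members and 0.67 for all genes, but large differences were fewer. Apart from Ldhb the members ran from -1.53 to 0.99, while the 0.05 and 0.95 quantiles of all genes were -8.67 and 6.67. Against a 2-fold difference (glmTreat of edgeR), 1 member was higher, the lactate dehydrogenase gene Ldhb, and 2 were lower, the glucose transporter gene Slc2a3 and the ribose phosphate isomerase gene Rpia. Among all genes 35.2% passed that test, 16.6% higher and 18.6% lower, so differences over 2-fold were rarer among the 30 members tested. The 3 libraries of each line did not overlap for 25 of the 30 members tested and for 87.4% of all genes. Together the 34 members took 1.92, 2.03 and 2.20% of gene counts in P6D4 replicates 1, 2 and 3, against 1.57, 1.48 and 1.54% in 70Z/3.

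**Figure D1:**
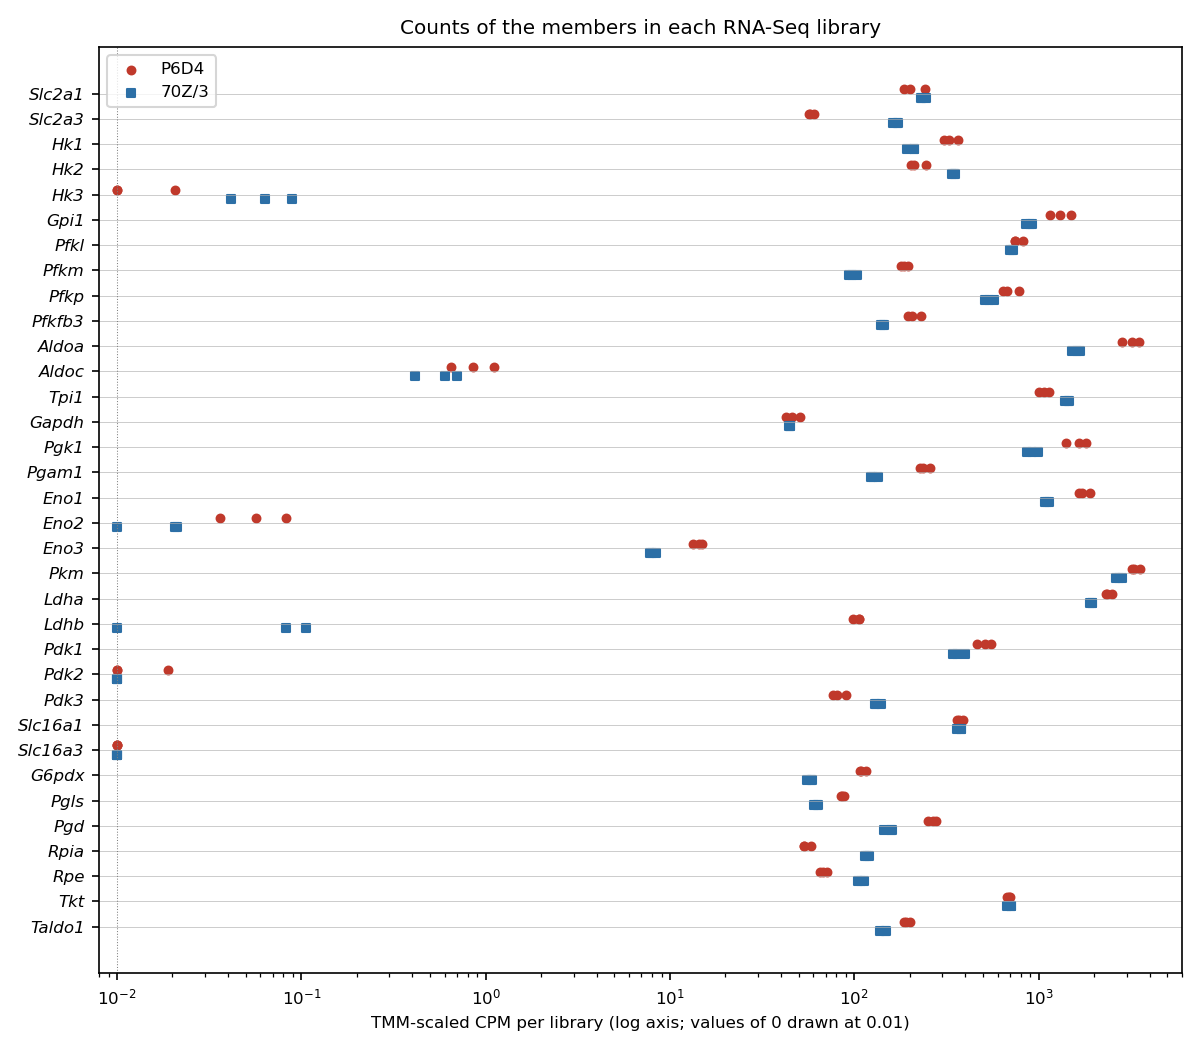
Level of the members in each library, in TMM-scaled counts per 1e6 on a log axis, with circles for the 3 P6D4 libraries, squares for the 3 70Z/3 libraries and values of 0 drawn at 0.01. Most glycolytic genes sit to the right in P6D4, Slc2a3, Hk2, Tpi1, Pdk3, Rpia and Rpe sit to the right in 70Z/3, and Ldhb lies near 100 CPM in P6D4 and at no more than 0.106 CPM in 70Z/3.

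**Figure D2:**
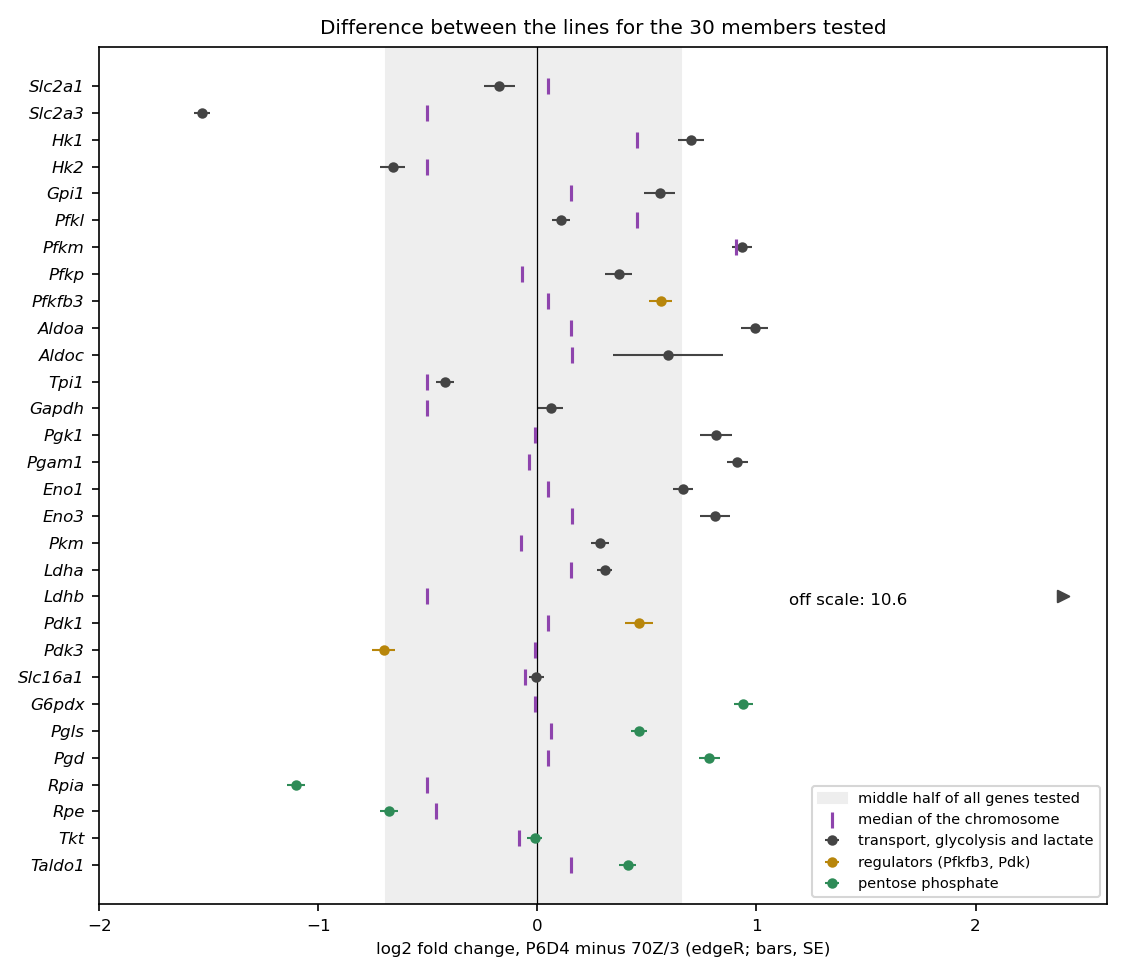
Log2 fold change of P6D4 over 70Z/3 for the 30 members tested, as points with bars of ± SE, coloured by their place in the pathway, with a vertical tick at the median of all tested genes on the member's chromosome and grey for the interquartile range of all genes tested. Apart from Ldhb, drawn as an arrow because it lies at 10.60, the values run from -1.53 for Slc2a3 to 0.99 for Aldoa.

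Glucose enters lymphoid cells mainly through the facilitative transporters GLUT1, encoded by Slc2a1, and GLUT3, encoded by Slc2a3, the carrier with the higher affinity. Slc2a3 was at 57.04, 57.5 and 60.3 CPM in P6D4, against 171, 162 and 172 CPM in 70Z/3. The lines were far apart and the libraries of each lay close together. Its log2 fold change was -1.53 ± 0.04 (SE, with an edgeR adjusted p of 1.23e-13), and it also passed the test against a 2-fold difference (adjusted p = 1.6e-09). Slc2a1 was at 187, 201 and 242 CPM in P6D4, against 235, 230 and 245 CPM in 70Z/3. P6D4 replicate 3 reached the range of 70Z/3, while the other two P6D4 libraries lay below it. The fitted log2 fold change of Slc2a1 was -0.17 ± 0.07 (SE, with an edgeR adjusted p of 0.035). The call was lost when P6D4 replicate 1 or 2 (adjusted p = 0.143 and 0.128) or 70Z/3 replicate 1 or 3 (0.0685 and 0.104) was left out, with a range of 2.86e-05 to 0.143 across the alternative settings. Summed over both genes, transporter counts averaged 268 ± 30.2 CPM in P6D4, against 405 ± 11.9 CPM in 70Z/3 (SD, n = 3 each), without overlap. Slc2a3 made up 21.9 ± 1.75% of these reads in P6D4 and 41.6 ± 0.515% in 70Z/3 (SD, n = 3 each). This sum and share, and the other isozyme sums and shares below, are of reads and not of molecules, because transcript lengths were not used.

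Hexokinase traps glucose as its phosphate, and its isozymes changed in opposite directions. Hk1, the widely expressed form, was at 306, 328 and 365 CPM in P6D4, against 212, 193 and 209.7 CPM in 70Z/3. Hk2, the form regulated by insulin and growth signals, was at 203, 209.9 and 245 CPM in P6D4, against 347, 339 and 354 CPM in 70Z/3. Neither gene overlapped between the lines: Hk1 was higher in every P6D4 library and Hk2 lower. The log2 fold changes were 0.70 ± 0.06 for Hk1 and -0.66 ± 0.06 for Hk2 (SE, with an edgeR adjusted p of 5.39e-08 and 1.03e-07). The share of Hk2 among hexokinase reads was 39.7 ± 0.578% in P6D4 and 62.9 ± 0.851% in 70Z/3 (SD, n = 3 each), and the ratio of Hk2 to Hk1 differed by -1.37 on the log2 scale. The sum of the isozymes was 552 ± 52.5 CPM in P6D4, against 551 ± 17.0 CPM in 70Z/3, with overlapping libraries (two-sided exact permutation test, p = 1). Because Hk1 and Hk2 went opposite ways, a sum weighted by transcript length could differ from this sum of reads, which was not tested. Hk3, the form of myeloid cells, had 0, 0 and 1 counts in P6D4 and 3, 2 and 4 counts in 70Z/3, too few to test.

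Gpi1 converts glucose phosphate to fructose phosphate, and phosphofructokinase then commits the sugar to glycolysis. Gpi1 was at 1148, 1303 and 1496 CPM in P6D4, against 920.3, 858 and 902 CPM in 70Z/3, all P6D4 libraries being higher. Its log2 fold change was 0.56 ± 0.07 (SE, with an edgeR adjusted p of 5.37e-06). Of the phosphofructokinase subunits, the muscle form Pfkm differed most, at 179, 187 and 195 CPM in P6D4, against 103, 93.3 and 96.7 CPM in 70Z/3. The lines were well separated, with a log2 fold change of 0.93 ± 0.04 (SE, with an edgeR adjusted p of 1.48e-10). The platelet form Pfkp was at 643, 678 and 784 CPM in P6D4, against 575, 514 and 539 CPM in 70Z/3, and was higher by 0.37 ± 0.06 on the log2 scale (SE, with an edgeR adjusted p of 8.05e-05). The liver form Pfkl differed least, at 744, 746 and 823 CPM in P6D4, against 704, 714 and 731 CPM in 70Z/3. Its libraries did not overlap, yet its log2 fold change was only 0.11 ± 0.04 (SE, with an edgeR adjusted p of 0.0248). That call was lost without P6D4 replicate 3 (adjusted p = 0.109), without 70Z/3 replicate 1 or 2 (0.0807 and 0.0727), with RLE size factors (0.0708) and in DESeq2 (0.0852), over a range of 0.00181 to 0.109. The muscle form thus took 11.3 ± 0.402% of phosphofructokinase reads in P6D4 and 7.20 ± 0.235% in 70Z/3, and the liver form 46.5 ± 0.936% in P6D4 and 52.8 ± 1.67% in 70Z/3 (SD, n = 3 each). Pfkfb3, the kinase that makes fructose-2,6-bisphosphate, an allosteric activator of phosphofructokinase, was at 195, 205 and 231 CPM in P6D4, against 145, 140.4 and 143 CPM in 70Z/3. It was higher by 0.56 ± 0.05 (SE, with an edgeR adjusted p of 2.07e-07).

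Aldolase cleaves the hexose into a pair of triose phosphates, and Aldoa had the second largest rise among the members after Ldhb. It was at 2849, 3214 and 3507 CPM in P6D4, against 1681, 1510.1 and 1623 CPM in 70Z/3. Every P6D4 library was higher than every 70Z/3 library, and the log2 fold change was 0.99 ± 0.06 (SE, with an edgeR adjusted p of 3.31e-09). The test against a 2-fold difference was not passed (adjusted p = 0.75). Aldoc, the brain form, was near the lower end of detection, at 0.649, 0.854 and 1.11 CPM in P6D4, against 0.702, 0.414 and 0.600 CPM in 70Z/3. The lines overlapped, and the call of a log2 fold change of 0.59 ± 0.25 (SE, with an edgeR adjusted p of 0.0404) was lost under 7 of 13 alternative settings. These included the fits without P6D4 replicate 2 or 3 (0.0715 and 0.168) and without 70Z/3 replicate 2 or 3 (0.171 and 0.0731), in a range of 0.00845 to 0.171.

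The steps with a single listed gene did not all go the same way. Pgk1, which makes the first ATP of the payoff phase, was at 1414, 1667 and 1806 CPM in P6D4, against 995, 859.98 and 921 CPM in 70Z/3. Pgam1, the mutase that follows it, was at 227, 237 and 257 CPM in P6D4, against 126, 123 and 134 CPM in 70Z/3. Both were higher in all P6D4 libraries, by 0.82 ± 0.07 and 0.91 ± 0.05 on the log2 scale (SE, with an edgeR adjusted p of 1.62e-07 and 3.72e-10). Tpi1, which interconverts the triose phosphates, went the other way. It was at 1009, 1066 and 1134 CPM in P6D4, against 1469.7, 1386 and 1439.8 CPM in 70Z/3, without overlap, and fell by 0.42 on the log2 scale (SE 0.04; edgeR adjusted p = 4.89e-07). Gapdh, the NAD+-dependent dehydrogenase often used as a reference gene, was at 42.8, 46.1 and 50.8 CPM in P6D4, against 44.4, 44.6 and 44.9 CPM in 70Z/3. The P6D4 libraries enclosed the narrow 70Z/3 range. The log2 fold change was 0.06, with a 95% interval of -0.06 to 0.18 (edgeR adjusted p = 0.316), and Gapdh was called higher only without P6D4 replicate 1 (0.12, adjusted p = 0.0306, in a range of 0.0306 to 0.99). Gapdh has many processed pseudogenes in the mouse, and for each gene count there were 1.10 to 1.14 non-unique alignments in P6D4, against 1.41 to 1.44 in 70Z/3. Such alignments were left out of gene counts, so the level of Gapdh is uncertain, and the part of this difference in its comparison was not tested. The same exclusion applied to all members, and its part in their comparisons was not tested either.

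Enolase and pyruvate kinase close the pathway. Eno1, the widely expressed enolase, was at 1652, 1723 and 1899.9 CPM in P6D4, against 1136, 1082 and 1107 CPM in 70Z/3. Eno3, the muscle form, was at 13.3, 14.8 and 14.4 CPM in P6D4, against 8.02, 8.43 and 7.80 CPM in 70Z/3. The lines were separate for both genes, with log2 fold changes of 0.67 ± 0.05 and 0.81 ± 0.07 (SE, with an edgeR adjusted p of 8.99e-09 and 9.76e-08). The neuronal form Eno2 had 2, 3 and 4 counts in P6D4 and 1, 1 and 0 counts in 70Z/3, too few to test. Pkm, whose splice forms M1 and M2 are not separated by counts per gene, was at 3198, 3293 and 3529 CPM in P6D4, against 2849.9, 2624 and 2747 CPM in 70Z/3. It was higher by 0.29 ± 0.04 (SE, with an edgeR adjusted p of 2.35e-05). Some reads of these genes can belong to near-identical copies. Eno1b, a copy of Eno1, averaged 235 ± 13.0 CPM in P6D4, against 75.1 ± 3.89 CPM in 70Z/3 (SD, n = 3 each; log2 fold change 1.64), and the aldolase copies Aldoart1 and Aldoart2 were higher by 1.28 and 7.08, Aldoart2 having 2 counts in all in 70Z/3. The copy Pgk1-rs7 had a log2 fold change of 0.65 that missed the threshold (edgeR adjusted p = 0.0509), and G6pd2 had too few counts.

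Lactate dehydrogenase showed the largest difference of all members. Ldha encodes the M subunit, which favours the reduction of pyruvate to lactate, and Ldhb the H subunit, which predominates in heart and favours the reverse reaction. Their upstream regions are shown because the subunits behaved so differently between the lines. Both are the 250 bases before a RefSeq transcription start on GRCm38.p6, read 5′ to 3′ on the gene's strand. The start used for Ldha, at 46845804, lies within the annotated gene, which begins at 46842274. The start used for Ldhb is the edge of its gene. Ldha lies on the plus strand at chr7:46845554-46845803 and Ldhb on the minus strand at chr6:142507958-142508207. Capitals mark CACGTG, the E-box that Myc and HIF family factors can bind.
Ldha: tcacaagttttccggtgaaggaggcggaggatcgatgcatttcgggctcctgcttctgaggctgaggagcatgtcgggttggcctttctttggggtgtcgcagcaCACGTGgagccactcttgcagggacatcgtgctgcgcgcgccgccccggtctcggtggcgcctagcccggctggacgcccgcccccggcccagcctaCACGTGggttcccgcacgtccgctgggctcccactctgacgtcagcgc
Ldhb: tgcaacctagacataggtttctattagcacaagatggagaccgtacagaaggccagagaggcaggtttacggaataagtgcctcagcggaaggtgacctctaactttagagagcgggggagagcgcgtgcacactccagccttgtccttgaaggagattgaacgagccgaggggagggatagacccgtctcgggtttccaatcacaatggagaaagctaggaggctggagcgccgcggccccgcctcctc
The Ldha window holds CACGTG at 145 and at 48 bases before the start, has 25 CpG dinucleotides and is 67.2% G or C. The Ldhb window holds no CACGTG, has 14 CpG dinucleotides and is 56.4% G or C. The median over 32851 RefSeq windows was 6 CpG dinucleotides and 52.4% G or C, so both starts are rich in CpG. A match of letters describes the window and is not evidence of binding.

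Ldhb was at 106, 107 and 98.5 CPM in P6D4, from 5890, 5615 and 4799 counts, against 5, 4 and 0 counts in 70Z/3. The gene was plainly transcribed in all P6D4 libraries and at the edge of detection in those of 70Z/3. The mean level was 104 ± 4.55 CPM in P6D4, against 0.0631 ± 0.0559 CPM in 70Z/3 (SD, n = 3 each). The fitted log2 fold change was 10.60 (edgeR adjusted p = 1.5e-16, and 3.36e-16 against a 2-fold difference) and ran from 10.06 to 11.16 across the alternative settings, since so few counts in 70Z/3 leave its size loosely fixed. Ldha was at 2349, 2328 and 2514 CPM in P6D4, against 1956, 1904 and 1954 CPM in 70Z/3. It was higher in every P6D4 library, but only by 0.31 ± 0.04 (SE, with an edgeR adjusted p of 2.3e-06). Ldhb therefore made up 4.16 ± 0.337% of lactate dehydrogenase reads in P6D4 and 0.00326 ± 0.00288% in 70Z/3 (SD, n = 3 each).

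Lactate leaves the cell through proton-linked monocarboxylate transporters. Slc16a1, which encodes MCT1, was at 388, 368 and 361 CPM in P6D4, against 363, 380.0 and 378 CPM in 70Z/3. The lines overlapped, and the log2 fold change was -0.00 with a 95% interval of -0.08 to 0.07 (edgeR adjusted p = 0.917). Slc16a3, which encodes the low-affinity exporter MCT4 of glycolytic muscle and hypoxic cells, had 0 counts in all 6 libraries, which allows a level of up to 0.0541 to 0.0616 CPM in P6D4 and 0.0622 to 0.0666 CPM in 70Z/3 (3 counts per library, counting error only). Bsg, the chaperone that carries these transporters to the membrane and no member of the set, was higher in P6D4, at 882 ± 118 CPM against 365 ± 20.4 CPM in 70Z/3 (SD, n = 3 each; log2 fold change 1.27 ± 0.08, SE; edgeR adjusted p = 1.67e-09).

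The pyruvate dehydrogenase kinases keep pyruvate out of mitochondria by inhibiting pyruvate dehydrogenase. Pdk1, a target of HIF in many cells, was at 461, 515 and 548 CPM in P6D4, against 399.6, 342 and 363 CPM in 70Z/3. Pdk3 was at 76.9, 80.8 and 89.9 CPM in P6D4, against 140.4, 132 and 130.3 CPM in 70Z/3. Neither gene overlapped between the lines, Pdk1 being higher in P6D4 by 0.46 ± 0.06 and Pdk3 lower, by -0.70 ± 0.05 (SE, with an edgeR adjusted p of 9.86e-06 and 2.13e-08). The share of Pdk3 among reads of the kinases was 13.98 ± 0.364% in P6D4 and 26.7 ± 0.952% in 70Z/3 (SD, n = 3 each). Pdk2 had 1 count in P6D4 and 0 in 70Z/3.

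**Figure D3:**
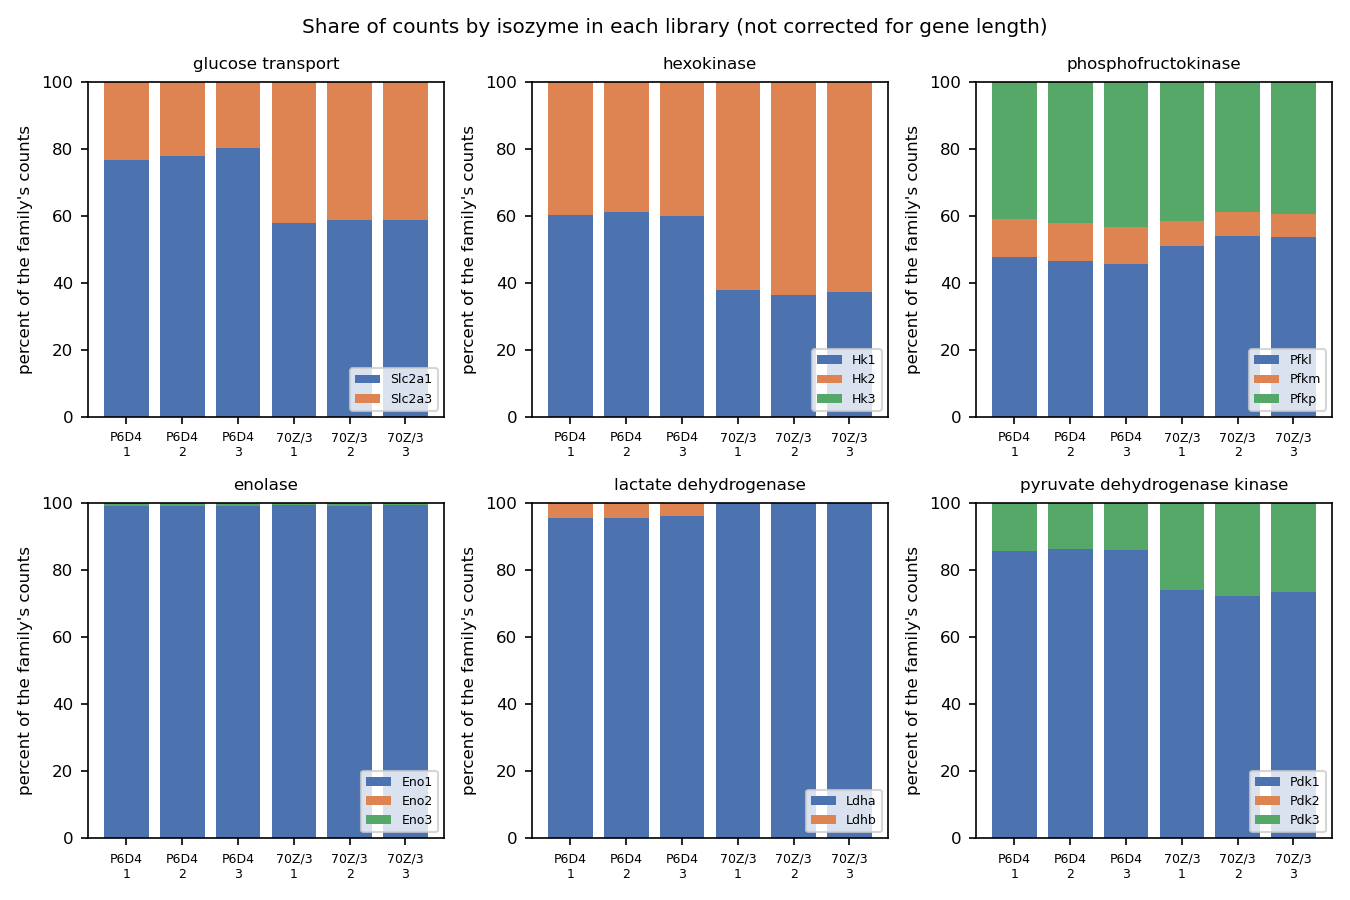
Share of each isozyme in the reads of its family, in percent per library, with P6D4 left of 70Z/3. Slc2a3, Hk2 and Pdk3 hold smaller shares in P6D4 (21.9, 39.7 and 13.98%) than in 70Z/3 (41.6, 62.9 and 26.7%), and the other panels differ by less.

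Of 9 isozyme shares compared, 6 did not overlap between the lines, those of Slc2a3, Hk2, Pfkl, Pfkm, Ldhb and Pdk3 (two-sided exact permutation p = 0.1 for each, the smallest that 3 against 3 libraries can give, and 0.15 adjusted over the 9). Those of Pfkp, Aldoc and Eno3 overlapped (exact permutation p = 0.2). The design cannot reach a threshold of 0.05 for a share, so the separation of the libraries is given as a description. Levels of single genes did not overlap for 87.4% of all genes tested, so separation by itself sets a share or sum apart little. The phosphofructokinase shares add up to a whole and are not separate results. The members' sums were also compared for 7 families. Aldolase, enolase, phosphofructokinase and lactate dehydrogenase sums were higher in P6D4 without overlap, by 0.99, 0.66, 0.29 and 0.37 on the log2 scale, and that of the transporters was lower, by -0.60 (exact permutation p = 0.1 each, 0.14 adjusted over the 7). The sum of the pyruvate dehydrogenase kinases was 591 ± 50.3 CPM in P6D4, against 502 ± 34.2 CPM in 70Z/3 with overlapping libraries (exact permutation p = 0.2). Hexokinase and the kinases of pyruvate dehydrogenase were thus families whose isozymes moved in opposite directions while the sums of reads overlapped with TMM scaling. For the latter the overlap was narrow, with P6D4 replicate 1 at 538.1 CPM and 70Z/3 replicate 1 at 540.0 CPM. The lowest exact permutation p of that sum across the alternative settings was 0.1, which needs libraries that do not overlap.

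In the pentose phosphate pathway the 3 genes of the oxidative arm were higher in P6D4. Of the 4 genes of the non-oxidative arm 1 was higher, 2 were lower and 1 was not called. Over all genes tested 43.3% were higher and 43.2% lower, and no contrast between the arms is read from so few genes. The oxidative arm starts with G6pdx, the dehydrogenase that sets the flow into the pathway and makes the first NADPH, continues with the lactonase Pgls and ends with Pgd, which makes the second NADPH and releases CO2. G6pdx was at 109, 108 and 116 CPM in P6D4, against 55.7, 58.5 and 59.3 CPM in 70Z/3. Pgls was at 85.5, 87.8 and 84.4 CPM in P6D4, against 60.6, 62.5 and 63.8 CPM in 70Z/3, and Pgd was at 268, 251 and 279 CPM in P6D4, against 145, 161 and 158 CPM in 70Z/3. All 3 genes were higher in every P6D4 library, by 0.94 ± 0.04, 0.46 ± 0.04 and 0.79 ± 0.05 on the log2 scale (SE, with an edgeR adjusted p of 6.17e-11, 4.18e-08 and 1.89e-09). In the non-oxidative arm, Rpia isomerises ribulose phosphate to ribose phosphate and Rpe converts it to xylulose phosphate. Rpia was at 57.9, 53.1 and 53.5 CPM in P6D4, against 115, 118 and 120.1 CPM in 70Z/3, and Rpe was at 71.2, 67.5 and 65.1 CPM in P6D4, against 112, 108 and 105 CPM in 70Z/3. Both were lower in all P6D4 libraries, Rpia by -1.10 ± 0.04 and Rpe by -0.68 ± 0.04 (SE, with an edgeR adjusted p of 1.08e-11 and 2.36e-09). They lie on chromosomes 6 and 1, where 66.5% and 62.5% of tested genes were lower. Rpia passed the test against a 2-fold difference (adjusted p = 0.011), but not without P6D4 replicate 2 (0.0682), with total-count scaling (0.0541) or with upper-quartile scaling (0.157), in a range of 0.000953 to 0.157. The transaldolase gene Taldo1 was at 201, 191 and 187 CPM in P6D4, against 138, 149 and 148 CPM in 70Z/3, and was higher by 0.41 ± 0.04 (SE, with an edgeR adjusted p of 3.2e-07). The transketolase gene Tkt was at 691, 677 and 704 CPM in P6D4, against 676, 709 and 706 CPM in 70Z/3, with overlapping libraries and a log2 fold change of -0.01 (95% interval -0.08 to 0.06; edgeR adjusted p = 0.719).

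Pgd also carried the strongest Miz1 peak at any member, in both lines. Miz1 is a zinc finger factor encoded by Zbtb17 that binds near transcription starts and can act together with Myc. In the P6D4 peak list the summit lay 115 bases before the RefSeq start of Pgd, with a fold over background of 43.8, rank 20 of 21629 peaks, and in the 70Z/3 list 104 bases before it, with a fold of 137, rank 24 of 10462. The scores are the authors', and folds and ranks of separately called lists do not measure a change. The nearest edge of another gene, Kif1b, lies 9614 bases away, and which end of Kif1b this is was not checked. Slc2a1 had a summit 93 bases after its start in the 70Z/3 list only, with a fold of 10.9 and rank 1248; that start also lies within an annotated long noncoding RNA gene, Gm52706. With 1 ChIP library per line there was no replicate check, and tags left after filtering numbered 2067731 in P6D4 and 4484034 in 70Z/3. The 250 bases before the starts of both genes are shown, from RefSeq on GRCm38.p6 and 5′ to 3′ on the gene's strand, because these are the members' starts with a Miz1 summit. The Slc2a1 summit lies after the start and so outside the bases shown. Pgd lies on the minus strand at chr4:149166706-149166955, where capitals mark the 21 bases centred on the 70Z/3 summit, and Slc2a1 on the plus strand at chr4:119108495-119108744, where capitals mark ACGTG, the core of the hypoxia response element, 36 bases before the start.
Pgd: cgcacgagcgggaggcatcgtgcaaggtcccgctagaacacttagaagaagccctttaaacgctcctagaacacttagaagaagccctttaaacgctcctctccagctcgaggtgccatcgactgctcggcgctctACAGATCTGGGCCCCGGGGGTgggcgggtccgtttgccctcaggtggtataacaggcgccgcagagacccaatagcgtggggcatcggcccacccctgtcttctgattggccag
Slc2a1: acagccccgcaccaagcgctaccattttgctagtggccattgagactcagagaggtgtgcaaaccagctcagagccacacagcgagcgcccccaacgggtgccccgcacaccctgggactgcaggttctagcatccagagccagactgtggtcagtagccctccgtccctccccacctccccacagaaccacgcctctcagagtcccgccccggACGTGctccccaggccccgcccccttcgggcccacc
A summit lay within 1 kb of the start for 1 of 33 members with a RefSeq start in P6D4, against 0.858% of 17492 protein-coding genes, and for 2 of 33 in 70Z/3, against 2.80%. Pgd RNA was higher in P6D4 and Slc2a1 RNA overlapped between the lines, as given above.

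ACGTG, read on both strands, occurred within 250 bases before to 50 bases after a start in 21 of 48 member windows, or 43.8%, and in 19.6% of all windows of that length. These windows belonged to 18 of the 33 members, among them Slc2a1, Hk1, Hk2, Aldoa, Gapdh, Pgk1, Pgam1, Pkm, Ldha, Pfkfb3 and G6pdx. CACGTG, which contains ACGTG, occurred in 5 of the 48 windows, or 10.4%, belonging to Ldha, Pdk2, Pfkfb3, Pfkm and Slc16a1, and in 7.15% of all windows. The genes with ACGTG included members higher (Aldoa, Pgk1), lower (Hk2, Pdk3) and not called (Gapdh, Slc16a1) in P6D4. These are matches of letters, and some genes have several starts. Both motifs hold a CpG, and the member windows and all windows were not matched for CpG content or gene type. No enrichment is read from these shares.

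The members' chromosomes differed in how their genes compared between the lines. Slc2a3, Hk2, Tpi1, Gapdh, Eno2, Ldhb and Rpia lie on chromosome 6, where the median log2 fold change of 624 tested genes was -0.50 and 66.5% of genes were lower in P6D4. Of the 7 members lower in P6D4, 4 lie there, while Ldhb on the same chromosome was the member most raised. Rpe lies on chromosome 1, with a median of -0.46. Pfkm lies on chromosome 15, with a median of 0.90, and Hk1 and Pfkl on chromosome 10, with a median of 0.45. For the other 23 members the chromosome's median was between -0.08 and 0.16. The part of a chromosome-wide shift in these results was not tested.

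Replicates of a line varied together across glycolytic genes. Of the 23 tested genes of glycolysis, lactate handling and their regulators, P6D4 replicate 1 was the lowest P6D4 library for 20, or 87%, and replicate 3 the highest for 20, also 87%. Over all genes tested these shares were 42% and 34.2%. In 70Z/3, replicate 2 was the lowest library for 17 of the 23, or 73.9%, against 31.7% of all genes. The ratio of P6D4 replicate 3 to replicate 1 had a median of 1.17 for these genes and was 1.30 for Gpi1, 1.28 for Pgk1 and 1.23 for Aldoa. Slc16a1 and Ldhb ran the other way, at 0.931 and 0.928. For the 7 pentose phosphate genes the median ratio was 0.987, and for all genes it was 1.00. The coefficient of variation between P6D4 libraries had a median of 8.08% for the glycolytic genes, 4.19% for the pentose phosphate genes and 4.61% for all genes, and between 70Z/3 libraries 4.0, 3.23 and 4.47%. All genes include many with low counts. For the 4083 tested genes with a mean of at least 50 CPM in each line, a level most of these members reach, the median was lower. It was 2.67% in P6D4 and 2.69% in 70Z/3, below the values of both groups of members. Differences near the spread of the glycolytic genes, as for Slc2a1, Pfkl and Gapdh, depended on the libraries used.

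**Figure D4:**
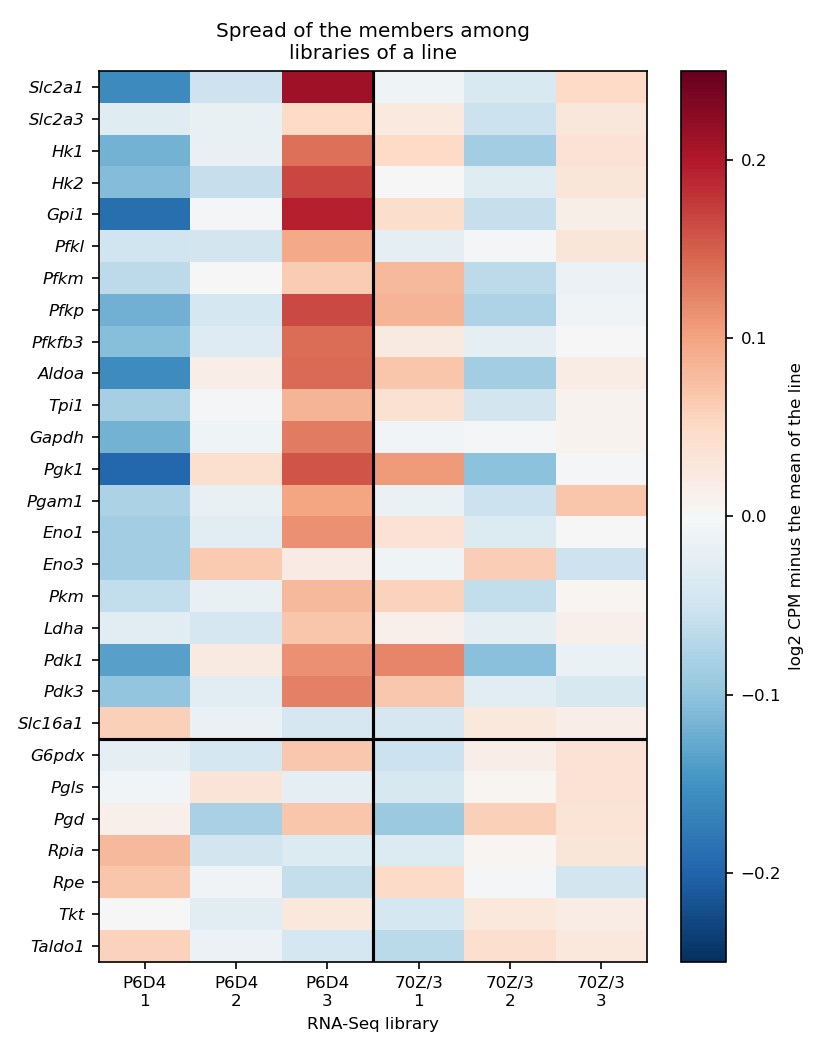
Colour map of the level of 28 members in each library minus the mean of its own line, on a log2 scale (red above and blue below the mean), with P6D4 left of 70Z/3 and the pentose phosphate genes under the horizontal line. Aldoc and Ldhb, with few counts in a line, are not drawn. In P6D4 most glycolytic genes are lowest in replicate 1 and highest in replicate 3, with a median ratio of 1.17 between these libraries, while the pentose phosphate genes, with a median ratio of 0.987, do not share that order.

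Genes around the pathway were called about as often as the members. Of 85 tested genes in 8 lists of neighbouring steps and regulators, 44 rose in P6D4, 33 fell and 8 missed the threshold, a share of 90.6% called and 51.8% higher, beside 86.5% and 43.3% of all genes tested. The counts of single lists below rest on 5 to 22 genes each and were not tested as lists, so nothing particular to a list is read from them. Of 5 other hexose transporters, 1 was higher and 4 lower, among them the urate and fructose carrier gene Slc2a9 (-1.93) and Slc2a8 (-0.75). Of 7 other genes for the listed steps, 6 were higher and 0 lower. The mitochondrial enzyme gene Ldhd, which oxidises D-lactate, was at 12.8 ± 1.63 CPM in P6D4 and had 4 counts in all in 70Z/3, and the red cell mutase gene Bpgm was higher by 0.59. Of 10 genes of the bisphosphatases that oppose phosphofructokinase and of gluconeogenesis, 4 were higher and 6 lower. Fbp1, which reverses the phosphofructokinase step, was at 65.2 ± 3.75 CPM in P6D4, against 18.5 ± 1.08 CPM in 70Z/3 (SD, n = 3 each; log2 fold change 1.82). Pck1, the cytosolic carboxykinase gene, was at 9.47 ± 1.18 CPM in P6D4 and had no count in 70Z/3, at least 142-fold higher against a floor of 3 counts per library, whereas its mitochondrial counterpart Pck2 was lower by -1.13. Tigar, a bisphosphatase gene that diverts sugar to the pentose phosphate pathway, was lower by -1.22, G6pc3 was higher by 0.59 and the pyruvate carboxylase gene Pcx lower by -0.73.

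Among genes for the entry of pyruvate into mitochondria, 4 of 10 were higher, 3 lower and 3 not called. The dehydrogenase subunit genes Dlat and Pdhb were higher, by 0.91 and 0.59, as was the activating phosphatase gene Pdp2, by 0.89. The shared subunit gene Dld was lower by -0.73, with Pdpr at -0.33 and Pdp1 at -0.19. Of 9 further pentose phosphate and ribose genes, 6 were higher and 2 lower. The phosphoribosyl pyrophosphate genes Prpsap2 and Prps2 and the endoplasmic reticulum dehydrogenase gene H6pd rose by 0.66, 0.52 and 0.46, and the aldolase gene Dera and the ribokinase gene Rbks were at -0.97 and -0.94. Of 22 genes for glycogen, galactose and side branches, 12 were higher and 8 lower. The glycogen branching enzyme gene Gbe1 was higher by 1.19 and the ketohexokinase gene Khk by 1.10, while Galt was lower by -0.62. Pgm2, of the phosphoglucomutase family, was at 0.117 ± 0.0461 CPM in P6D4, against 59.99 ± 0.447 CPM in 70Z/3 (SD, n = 3 each). Gbe1, like Pgd, had a Miz1 summit near its start in both lists, with folds of 13.2 in P6D4 and 106 in 70Z/3.

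Of 7 genes of the malate-aspartate shuttle, which moves reducing equivalents from cytosolic NADH into mitochondria, 2 were higher and 5 lower. Slc25a13, the aspartate-glutamate carrier citrin, had 5 counts in all in P6D4, against 86.7 ± 4.64 CPM in 70Z/3 (SD, n = 3), and the dehydrogenase genes Mdh1 and Mdh2 were lower by -0.26 and -0.24, while Got1 and the carrier gene Slc25a11 were higher by 0.46 and 0.35. Among 15 transcriptional and redox regulators, 9 were higher, 5 lower and 1 not called. Myc, an activator of many glycolytic genes, was at 457 ± 12.7 CPM in P6D4, against 128 ± 3.41 CPM in 70Z/3 (SD, n = 3 each; log2 fold change 1.84). The hypoxia-induced prolyl hydroxylase gene Egln3 was at 249.8, 276 and 317 CPM in P6D4, against 0.277, 0.477 and 0.378 CPM in 70Z/3, and Arnt, which encodes the partner subunit of HIF, was higher by 0.80. Hif1a itself was not called, at 212 ± 5.82 CPM in P6D4, against 218 ± 4.25 CPM in 70Z/3 (SD, n = 3 each; edgeR adjusted p = 0.294). Txnip, which restrains glucose uptake, and Mlxip, a glucose-responsive factor, were lower, by -1.06 and -1.25, and Vhl by -0.42. All genes given as higher or lower in these lists passed the edgeR test.

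**Figure D5:**
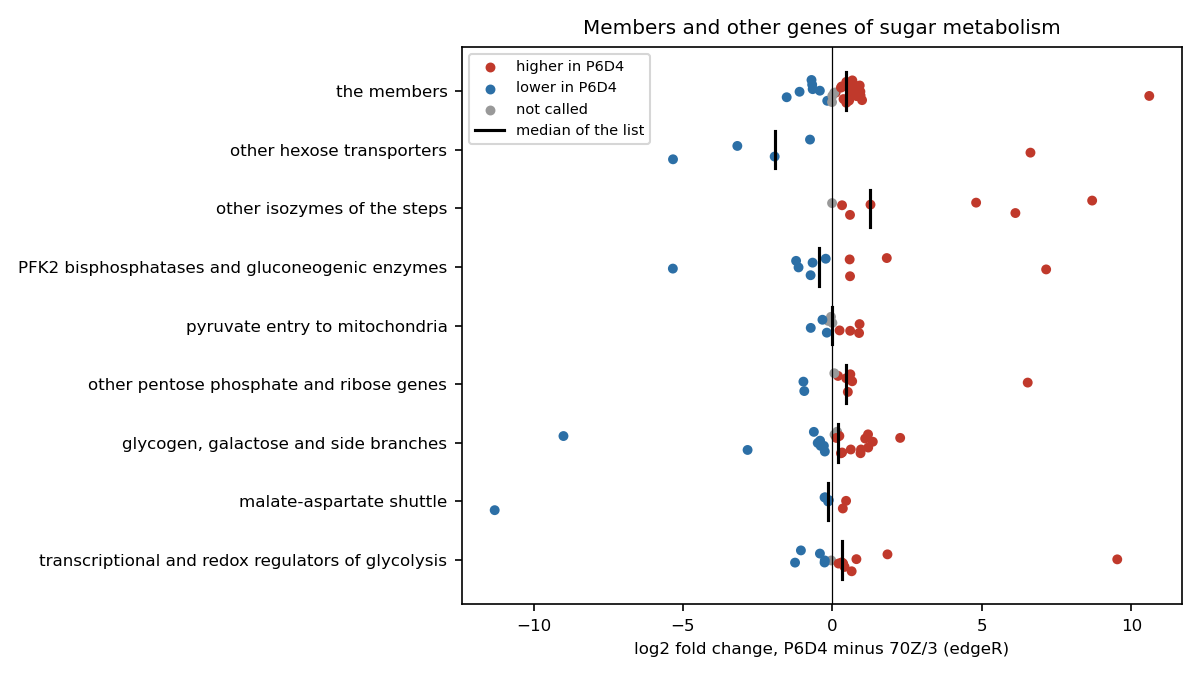
Log2 fold change of P6D4 over 70Z/3 for the members and each tested gene of the lists around the pathway, 1 point per gene coloured by its call, with black bars at list medians and genes at 0 in a line drawn at their bound. The list medians run from -1.93 for the other hexose transporters (5 genes) to 1.27 for other genes of the listed steps (7 genes), beside 0.01 for all genes tested.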

How the data were processed

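The deposited RNA-Seq values are raw counts per Ensembl gene. The submitters' processing notes name HTSeq, TopHat2 2.0.10, Bowtie2 2.10, SAMtools and bedtools, and the builds mm10 and GRCm38. The kit was stranded, per the labels' protocols. Whether HTSeq used strand is not stated there, so reads where genes overlap may be set aside as ambiguous or counted for the other gene. Ambiguous reads were 0.382 to 0.424% of unique alignments. The 5 summary lines per file were left out (reads outside genes were 14.5 to 16% of unique alignments). Per the file headers, Miz1 peaks were called by the authors with MACS 2.0.10.20120913 on 1 ChIP library per line; the deposited values used are pileup signal, fold over background (a ratio) and −log10 q.

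Symbols were matched to gene IDs through a name table. Counts were scaled by TMM and compared in edgeR 4.0.16 by its quasi-likelihood test after filterByExpr (Benjamini-Hochberg adjustment over 13750 genes, threshold 0.05, cell line as the only term), and with glmTreat against a log2 fold change of 1. The SE is the log2 fold change divided by the square root of F, and intervals are 95%. It understates counting error where a line has few counts. Isozyme shares and sums, planned per length, use raw counts and CPM because no transcript lengths were used. They were compared by two-sided exact permutation tests (scipy 1.17.1). Promoter windows are from RefSeq, GRCm38.p6. In simulated data on 13532 genes, the test recovered 47 of 62 genes changed by 0.5 on the log2 scale and 68 of 68 changed by 2. Of its calls there, 4.76% were false. The simulation changed only a small part of the genes and gave all genes the same dispersion. It cannot show how the test performs in lines that differ in most genes. Alternatives were RLE, upper-quartile and total-count scaling, no filter, a replicate block, leaving out each library, DESeq2 1.42.0 and limma-voom 3.58.1. The members and lists were chosen with earlier results of these data known. All members are named. Of the other lists, up to 3 called genes with the highest and 3 with the lowest fold change and 5 CPM or more in either line are named, as well as all near-identical copies; 2 genes that the rule names are not reported here. Hif1a and the promoters of Ldha and Ldhb were chosen after their values were seen. Protein sequences and the histone mark samples were not analysed here.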

Additional observations from a re-analysis of the deposited data

How the results depend on the processing

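Of 390 refits of the 30 tested members under 13 alternatives, 371 stayed on the same side of the threshold. Another 18 lost the call (Slc2a1 6, Pfkl 5, Aldoc 7) and 1 gained it (Gapdh). The genes not called in the main fit changed sign in some settings. Their log2 fold changes ran from -0.0319 to 0.0527 for Slc16a1, -0.0379 to 0.0439 for Tkt and -0.00067 to 0.121 for Gapdh. The count of members higher in P6D4 ran from 18 to 21 and the count lower from 6 to 8. The count lower by over 2-fold was 1 under upper-quartile and total-count scaling, and 1 to 2 with each library left out. The hexokinase sum, near 0 throughout, changed sign with total-count scaling (0.0314) and ran from -0.0762 to 0.0556 with each library left out. A window of 5 kb gave 2 members with a Miz1 summit in P6D4, the second being Gapdh (3689 bases after its start). The correlations of deviations between same-numbered libraries were -0.219, -0.204 and 0.0529, and those between differently numbered libraries ran from -0.199 to 0.305. They gave no sign of pairing by number, but 3 libraries per line are too few to decide it. With the replicate block the members higher were 19 and those lower 7, and Aldoc was lost (log2 fold change 0.59, edgeR adjusted p = 0.0506). The block cannot change a sum, because the mean of paired differences equals the difference of means. The shares were not run with the block. Depth limits Hk3, Eno2, Pdk2 and Slc16a3, and the size of the Ldhb difference.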
